A study of Mus musculus with 5 samples.

Results

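The genes described here are 10 imprinted regulators of growth, the rows of the count table named H19, Dlk1, Meg3, Peg3, Mest, Cdkn1c, Grb10, Plagl1, Peg10 and Rian. They are 10 of the 28666 listed genes, and 9 of the 10 had enough counts to be tested. RNA was taken from the whole uterus of ICR females of 6 to 8 weeks, caged before with vasectomized C57BL/6 males, 3.5 days after caging by the series' description, while the study's methods give a slightly earlier time after mating. The aged-SP group (2 libraries, replicates 1 and 4) was mated with aged males and the young-SP group (3 libraries, replicates 1, 2 and 4) with young males. The study left out a further young-SP sample that clustering marked as an outlier. The spread in the young-SP group is thus that of the samples kept. The males were sterile, so the females of both groups were pseudopregnant and received seminal plasma (SP) without sperm. The comparison asks how the age of the males bears on the uterus before implantation. The labels do not say that each library is a separate female, so the p-values measure only the spread between these libraries.

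An imprinted gene is transcribed mainly from the copy inherited from one parent, because methylation set in the egg or the sperm marks the copies differently. The copies in question here are those that each female inherited from its own parents, and the seminal plasma adds none. Mest, Peg3, Peg10, Plagl1 and Dlk1 are expressed from the paternal copy, and H19, Meg3, Rian, Cdkn1c and, in most tissues, Grb10 from the maternal copy. These genes are known for setting the size of the embryo and the placenta, and many fall silent or low after birth. Which copy was read cannot be seen in counts per gene.

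The total count lay between 15071914 and 16728601 per library. Counts were scaled with edgeR's TMM method to CPM, in which every library has the same total, and a count of 3 corresponded to between 0.177 and 0.200 CPM in a library. On the first principal component of the 500 most variable genes, young-SP replicate 1 lay at -9.43, between the aged-SP libraries (-43.7 and -25.5) and the other young-SP libraries (36.6 and 41.9). For the members, values without it are given wherever they change a call or a direction. Markers of uterine epithelium (7 of 7), endometrial stroma (7 of 7) and myometrium (7 of 7) were all tested, and in each library the myometrial markers had the largest sum of the lists, between 9046 and 14240 CPM. The widest gap between the groups was in the 6 gland markers, led by Prss29, which summed to 2930 to 4078 CPM in the aged-SP libraries, 508 CPM in young-SP replicate 1 and 41.7 to 50.7 CPM in the other young-SP libraries. That sum was carried by Prss28 and Prss29. Of the other gland markers, Spink1 was higher in the aged-SP libraries without overlap, but aged-SP replicate 1 carried the difference. Spink1 had 153 CPM there and 12.2 CPM in aged-SP replicate 4, against 11.1, 10.8 and 7.74 CPM in young-SP replicates 1, 2 and 4. Its adjusted p was 0.184 in edgeR and 0.0772 in DESeq2. Foxa2 (log2 fold change -0.019) and Lif overlapped, and Cxcl15 was lower without overlap (log2 fold change -2.35, adjusted p = 0.116 in edgeR and 0.000254 in DESeq2). The sums of the epithelial (1164 to 1246 against 920.5 to 1580 CPM), endothelial (587 to 593 against 433 to 757 CPM) and leukocyte markers (392 to 475 against 328 to 522 CPM) overlapped between the groups. Single markers of these lists did not all overlap. Cldn3 was lower in both aged-SP libraries without overlap (log2 fold change -1.03, adjusted p = 0.0553 in edgeR and 8.005e-12 in DESeq2). Emcn was also lower without overlap, while Krt18 and Itgax were higher without overlap. The part of the tissue's makeup in the results below was not tested. Because whole tissue was sequenced, fewer cells of a type and less RNA per cell cannot be told apart.

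Mest carried the clearest difference between the groups, Grb10 the next and Peg3 the clearest in the other direction, and sequence around their starts is shown for that reason. The windows run from 250 bases before to 50 bases after a RefSeq start on GRCm38.p6, 5′ to 3′ on the strand of the gene. Capitals mark CG dinucleotides, the sites at which DNA methylation can be placed. Whether a window lies in a region methylated by imprinting was not examined. Methylation was not measured here.
Mest, downstream start, chr6:30737800-30738099, plus strand: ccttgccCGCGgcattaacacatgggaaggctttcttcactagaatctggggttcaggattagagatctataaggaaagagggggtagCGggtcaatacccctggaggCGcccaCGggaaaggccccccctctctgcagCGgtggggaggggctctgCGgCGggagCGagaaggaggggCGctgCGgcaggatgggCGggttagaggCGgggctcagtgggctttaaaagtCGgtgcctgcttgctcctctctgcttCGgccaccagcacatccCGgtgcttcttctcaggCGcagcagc
Mest, upstream start, chr6:30733256-30733555, plus strand: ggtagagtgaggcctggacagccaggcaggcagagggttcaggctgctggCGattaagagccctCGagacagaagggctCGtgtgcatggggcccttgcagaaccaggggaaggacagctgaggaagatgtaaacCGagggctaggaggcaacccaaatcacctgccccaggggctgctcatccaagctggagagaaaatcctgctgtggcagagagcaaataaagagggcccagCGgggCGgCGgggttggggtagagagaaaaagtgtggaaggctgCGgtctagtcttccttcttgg
Grb10, outer start, chr11:12037371-12037670, minus strand: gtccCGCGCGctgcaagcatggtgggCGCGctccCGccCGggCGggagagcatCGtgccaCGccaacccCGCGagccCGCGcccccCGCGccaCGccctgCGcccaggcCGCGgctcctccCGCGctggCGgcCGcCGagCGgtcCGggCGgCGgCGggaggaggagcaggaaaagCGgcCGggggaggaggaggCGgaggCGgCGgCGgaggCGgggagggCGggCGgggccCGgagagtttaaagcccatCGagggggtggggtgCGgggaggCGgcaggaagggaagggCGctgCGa
Peg3, chr7:6730370-6730669, minus strand: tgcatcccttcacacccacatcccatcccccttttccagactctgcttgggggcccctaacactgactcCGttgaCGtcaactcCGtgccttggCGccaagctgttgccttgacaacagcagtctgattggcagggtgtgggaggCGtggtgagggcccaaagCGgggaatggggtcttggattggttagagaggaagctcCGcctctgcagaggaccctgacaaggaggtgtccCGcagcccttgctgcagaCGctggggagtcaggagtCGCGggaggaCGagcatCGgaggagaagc

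The printed Grb10 window, at the outer start, held 45 CG dinucleotides, a number reached by 1.93% of the 32851 windows of all genes. The Grb10 window at an inner start, not printed, held 9, a number reached by 45.8% of the windows. The printed Mest windows held 17 and 8 and the Peg3 window 13, against a median of 7 over all windows. The GC box GGGCGG, searched on both strands, occurred 5 times in the printed Grb10 window and 1 time in each Mest window. It occurred 0 times in the Peg3 window and in the inner Grb10 window, and 35.7% of all windows held it. RefSeq windows were matched for 7 of the 10 genes.

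Mest encodes a hydrolase-like protein of the endoplasmic reticulum that is abundant in embryonic mesoderm and in expanding fat tissue. It lies on chromosome 6 (30723547 to 30748465, GRCm38, plus strand). It had 232 and 269 counts in aged-SP replicates 1 and 4, and 701, 1235 and 752 counts in young-SP replicates 1, 2 and 4. Both aged-SP libraries lay far below every young-SP library, and young-SP replicate 2 was the highest. In CPM the level was 15.6 ± 2.25 (SD, n = 2) with aged males and 55.7 ± 15.3 (SD, n = 3) with young males, so that the fitted level of the aged-SP group was 28.0% of that of the young-SP group. The log2 fold change (log2FC, always aged-SP over young-SP) was -1.83 with a standard error (SE) of 0.26. The adjusted p was 0.0734 in edgeR's quasi-likelihood test, a two-sided test with Benjamini-Hochberg adjustment over 17013 tested genes, so that Mest missed the threshold, an adjusted p under 0.05 together with a log2FC beyond 1 in either direction.

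The call for Mest changed with the tool, the filter and young-SP replicate 1, while its direction was kept in each alternative. DESeq2, the tool of the study's methods, called it (adjusted p = 1.087e-08), as did edgeR without young-SP replicate 1 (adjusted p = 0.0218) and without a filter on low counts (adjusted p = 0.0240), but limma-voom did not (adjusted p = 0.0827). Over all 12 alternatives run for Mest the log2FC stayed between -1.99 and -1.59 and the adjusted p between 1.087e-08 and 0.271. Of the exon bases of Mest, 23.1% overlap those of Copg2 on the opposite strand. Copg2, which encodes a subunit of the coat of transport vesicles, had 853 and 860 counts in aged-SP uteri and 915, 1073 and 948 in the young-SP libraries, a log2FC of -0.20. Whether strand was used in counting is not given in the sources used here, and without it reads in the shared stretch cannot be told apart.

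Proliferation, adipose and skeletal muscle markers were, like Mest, lower in sum in each aged-SP library than in all young-SP libraries, while the stromal sums, led by Vim, overlapped narrowly. Of the 7 stromal markers 6 had a log2FC under 0, and Pdgfra, Hoxa11 and Hand2 were lower in both aged-SP libraries without overlap (Pdgfra log2FC -0.65, adjusted p = 0.120 in edgeR and 0.00476 in DESeq2). The 7 proliferation markers summed to 222 to 239 CPM in the aged-SP and 255 to 679 CPM in the young-SP group, and the 7 stromal markers to 1678 to 2017 and 1995 to 2792 CPM, with none of either list at 0 in a group. All 7 proliferation markers had a log2FC under 0, but only 3 (Mki67, Top2a and Birc5) had no overlap between the groups. Their sum was highest in young-SP replicate 1, while Mest was highest in young-SP replicate 2. Of the 5 adipose markers in the table, 4 (Adipoq, Cidec, Plin1 and Cfd) were at 0 in both aged-SP libraries, and the list summed to 3.20 to 4.09 CPM in the aged-SP and 4.50 to 10.6 CPM in the young-SP group. The 5 skeletal muscle markers in the table summed to 91.5 to 116 against 193 to 264 CPM, a difference carried by Acta1 alone. Ckm, Tnnt3 and Mylpf overlapped between the groups, and Myh1 had 1 count in young-SP replicate 2 and 0 in the other libraries. The part of these tissues in the level of Mest was not tested. Nearly all counts of Adipoq, Plin1, Cidec and Cfd came from young-SP replicate 4 (12, 7, 8 and 58 counts). Young-SP replicate 1 had 2 counts of Plin1 and 0 of the other 3 genes, and young-SP replicate 2, with the most Mest, had 1 count of Cfd and 0 of the other 3. The fifth marker, Fabp4, had 53 and 64 counts in aged-SP uteri and 70, 82 and 74 in young-SP replicates 1, 2 and 4.

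An intron of Mest holds the gene of a microRNA, miR-335, on the same strand (GRCm38.p6). Its mature forms are given because they belong to the transcription unit with the clearest difference, with the seed (bases 2 to 8) in capitals, from RefSeq. The levels of these microRNAs were not measured in these libraries.
miR-335-5p, chr6:30741314-30741336: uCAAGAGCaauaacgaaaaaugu
miR-335-3p, chr6:30741354-30741375: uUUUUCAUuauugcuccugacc

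**Figure D1:**
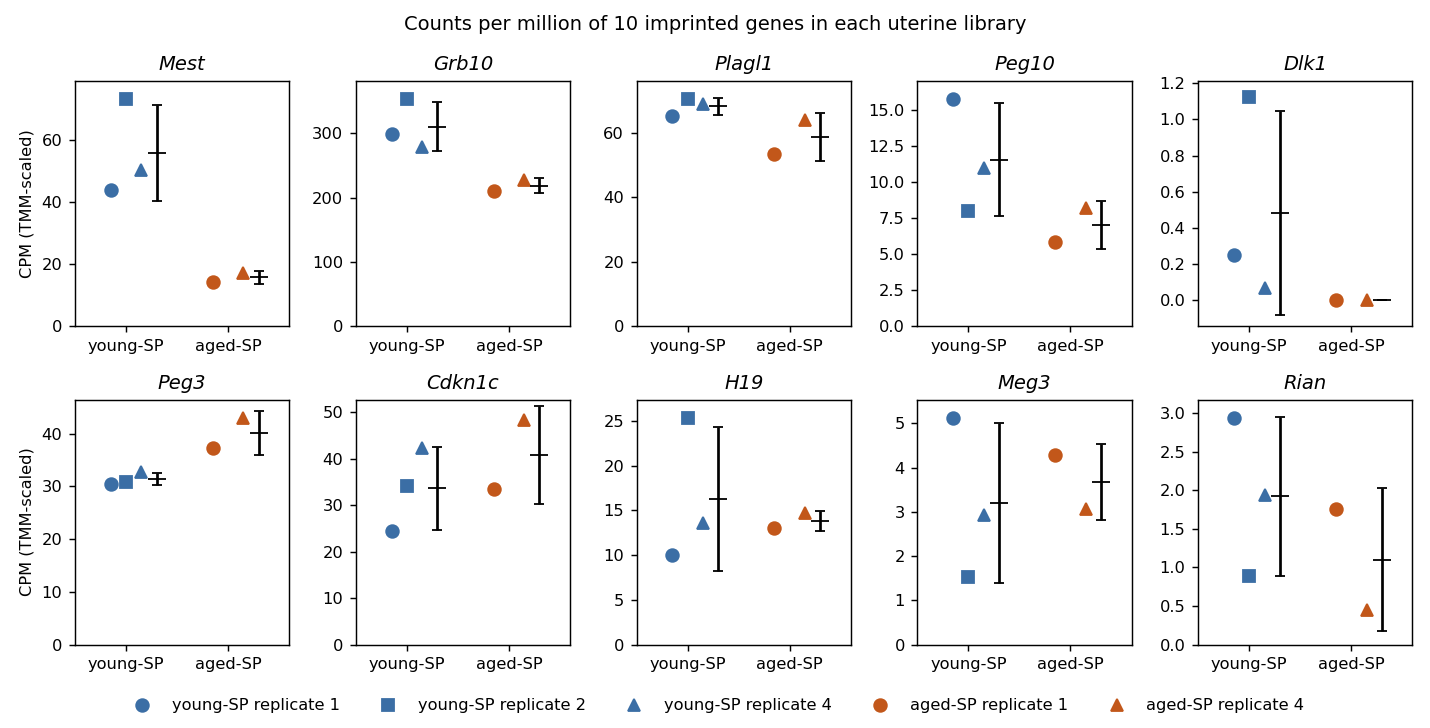
Each panel plots 1 imprinted gene, with the group on the x axis and the level in CPM (TMM-scaled, linear axis) on the y axis. Symbols are libraries, and the bar beside them is the mean with its SD (n = 3 for young-SP, n = 2 for aged-SP). Mest separated most widely, with 14.0 and 17.2 CPM in the aged-SP libraries against 43.9 to 73.0 CPM, while H19, Meg3, Rian, Cdkn1c and Peg10 overlapped.

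Grb10 encodes an adaptor protein that binds the receptors for insulin and insulin-like growth factor 1 (IGF1) and dampens their signal. Its locus is on chromosome 11 (11930508 to 12038683, minus strand) and shares 0% of its exon bases with other genes. It had 3476 and 3548 counts in aged-SP uteri and 4776, 5976 and 4179 in young-SP replicates 1, 2 and 4. Here too both aged-SP libraries lay below all young-SP libraries, with young-SP replicate 2 the highest. The level was 218 ± 11.9 CPM (SD, n = 2) with aged males and 310.3 ± 38.5 CPM (SD, n = 3) with young males, a log2FC of -0.51 (SE 0.13). The adjusted p was 0.144 in edgeR and 0.0176 in DESeq2, and the change was under the log2 threshold of 1 in both.

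Plagl1 encodes a zinc finger transcription factor that halts the cell cycle in cultured cells and acts on other imprinted genes. Its locus is on chromosome 10 (13060504 to 13131694, plus strand). Its level was 53.3 and 63.8 CPM in aged-SP replicates 1 and 4 and 65.1, 70.4 and 69.0 CPM in young-SP replicates 1, 2 and 4. The aged-SP libraries were the lower ones, but aged-SP replicate 4 lay only just under young-SP replicate 1. The log2FC was -0.22 (SE 0.11) and edgeR gave an adjusted p of 0.349.

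Cdkn1c encodes p57, an inhibitor of cyclin-dependent kinases that rises in the decidua, the uterine lining that forms around an implanted embryo. It lies on chromosome 7 (143458339 to 143461050, minus strand). It had 553 and 756 counts in aged-SP uteri and 392, 576 and 634 in the young-SP libraries. The groups overlapped, and aged-SP replicate 4 was the highest and young-SP replicate 1 the lowest. The level was 40.9 ± 10.5 CPM (SD, n = 2) against 33.6 ± 8.91 CPM (SD, n = 3), giving a log2FC of 0.28 with an SE of 0.27 and, in edgeR, an adjusted p of 0.612. Without aged-SP replicate 4 the log2FC was -0.0082. Of its exon bases, 30.6% overlap the gene model Gm44732 on the other strand.

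Peg3 encodes a large zinc finger protein of maternal behaviour and of placental growth. Its locus is on chromosome 7 (6703892 to 6730431, minus strand). Its counts were 616 and 673 in the aged-SP libraries and 488, 522 and 490 in the young-SP libraries. Both aged-SP libraries lay above all young-SP libraries, and the young-SP libraries were close together. The level was 40.1 ± 4.11 CPM (SD, n = 2) with aged males and 31.4 ± 1.18 CPM (SD, n = 3) with young males, giving a log2FC of 0.36 with an SE of 0.11 and, in edgeR, an adjusted p of 0.184. The change was not called by DESeq2 either (adjusted p = 0.175).

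Peg10 derives from a retrotransposon and is needed for the placenta. It lies on chromosome 6 (4747306 to 4760517, plus strand). It had 97 and 128 counts in aged-SP uteri and 252, 135 and 164 in young-SP replicates 1, 2 and 4. In CPM, aged-SP replicate 4 (8.19) lay just above young-SP replicate 2 (7.98), so that the groups overlapped, and young-SP replicate 1 was the highest (15.8). The log2FC was -0.72 (SE 0.34, adjusted p = 0.327 in edgeR) and -0.44 without young-SP replicate 1.

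H19 is a long noncoding RNA whose exon holds the microRNA miR-675, and it shares a control region with Igf2, the fetal growth factor. It lies on chromosome 7 (142575529 to 142578143, minus strand). It had 216 and 229 counts in aged-SP uteri and 160, 429 and 203 in young-SP replicates 1, 2 and 4. Young-SP replicate 2 stood far above the other 4 libraries, and the aged-SP libraries lay inside the young-SP range. The level was 13.8 ± 1.12 CPM (SD, n = 2) against 16.3 ± 8.04 CPM (SD, n = 3), giving a log2FC of -0.24 with an SE of 0.41 and, in edgeR, an adjusted p of 0.789. Without young-SP replicate 2 the log2FC turned to 0.23. Igf2 itself had 4 and 3 counts in the aged-SP and 2, 6 and 3 counts in the young-SP libraries and could not be tested.

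Dlk1, Meg3 and Rian lie in order on chromosome 12, in the cluster that ends with Dio3. Dlk1 encodes a membrane protein related to the Notch ligands that holds back fat cell differentiation (109452823 to 109463336, plus strand). It had 0 counts in both aged-SP libraries and 4, 19 and 1 counts in young-SP replicates 1, 2 and 4, which was too few to be tested. Most of its counts came from young-SP replicate 2. Against a floor of 3 counts in each aged-SP library, Dlk1 was at least 2.57-fold lower in the aged-SP group, a bound that covers counting error only. Without young-SP replicate 2 the mean of the young-SP group was 0.159 CPM, under the floor of 0.187 CPM, and no fold could be given. The 7 ovary markers, led by Inha, summed to 5.69 to 5.92 CPM in the aged-SP and 4.63 to 5.68 CPM in the young-SP group. Oosp1 had 1 count in young-SP replicate 4, Zp3 had 1 count in young-SP replicate 1, and both were at 0 elsewhere. In young-SP replicate 2, and picked after their values were seen, Cyp17a1 and Lhcgr had 5 counts each, against at most 2 elsewhere, while Cyp11a1 had 0. Other ovary markers differed: Cyp11a1 was highest in aged-SP replicate 4 (14 counts) and Inha in aged-SP replicate 1 (5.44 CPM). Amh had 4 counts in each of young-SP replicates 2 and 4. The part of ovarian RNA in the level of Dlk1 was not tested.

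The noncoding RNAs of the cluster were read at low levels. Meg3 (109541001 to 109571726, plus strand) had 71 and 48 counts in aged-SP uteri and 82, 26 and 44 in young-SP replicates 1, 2 and 4. Rian (109603940 to 109661716, plus strand), the host of small nucleolar RNAs and of microRNAs, had 29 and 7 counts and 47, 15 and 29 counts. Both were highest in young-SP replicate 1, and both groups overlapped in each. That library also had the highest sums of the proliferation (679 CPM), epithelial (1580 CPM) and leukocyte markers (522 CPM). The part of these cells in the levels of Meg3 and Rian was not tested. The log2FC was 0.20 (SE 0.52, adjusted p = 0.866) for Meg3 and -0.79 (SE 0.74, adjusted p = 0.599) for Rian by edgeR. For Meg3 the direction turned without aged-SP replicate 1 (-0.061) and without young-SP replicate 2 (-0.13). For Rian it was -2.08 without aged-SP replicate 1, -0.13 without aged-SP replicate 4 and -0.35 without young-SP replicate 1. Of the exon bases, 8.29% of Meg3 and 3.42% of Rian overlap other gene models.

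Among the 9 tested genes, 0 were called by edgeR, where 0.147% of all tested genes were called. DESeq2 called 1 (Mest), against 3.60% of all genes with an adjusted p, and limma-voom 0. By the adjusted p of DESeq2 alone there were 2 (Mest and Grb10), against 7.58%. At an unadjusted p under 0.05 edgeR's test gave 3 of the 9, with 1 higher in the aged-SP libraries (Peg3), against 9.62% of all tested genes, and 2 lower (Mest and Grb10), against 9.36%. In 4 of the 9 the libraries of the groups were fully apart, with Mest, Grb10 and Plagl1 lower and Peg3 higher in the aged-SP group, against 38.8% of all tested genes (19.5% higher and 19.3% lower). The median log2FC was -0.24 over the 9 genes and 0.0072 over all tested genes. By parental copy, the median was -0.47 over the 4 tested genes expressed from the paternal copy and -0.24 over the 5 expressed from the maternal copy, and in each set there were genes on either side of 0.

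**Figure D2:**
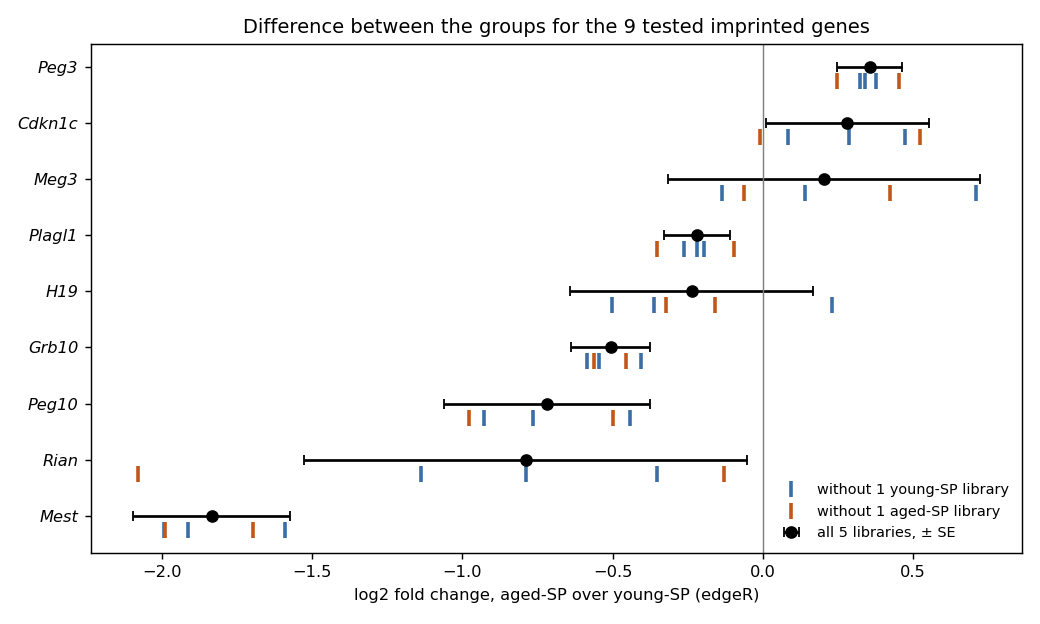
The x axis gives the log2FC of the aged-SP over the young-SP group from edgeR, and each row is 1 of the 9 tested genes. Black points with bars are the values with their SE from all 5 libraries, and the ticks below are the values without 1 library. All values of Mest lie between -1.99 and -1.59, while those of H19, Meg3 and Cdkn1c fall on both sides of 0.

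To compare levels between genes, the FPKM values (counts divided by the length of the gene and by the library total) were used. Grb10 had the highest level, with a mean of 30.1 FPKM over the 5 libraries (22.9 to 39.7), a level above that of 89.8% of the tested genes. Cdkn1c (mean 17.9 FPKM), Mest (10.1 FPKM), Plagl1 (8.22 FPKM) and H19 (6.25 FPKM) followed. From Grb10 down to H19, the ranges of neighbouring genes overlapped. Peg3 (2.61 FPKM) and Peg10 (1.46 FPKM) formed a lower step, with every library of Peg3 under every library of H19. Below Peg10, with no overlap, came Meg3 (0.187 FPKM), Rian (0.0870 FPKM) and Dlk1 (0.0517 FPKM), whose ranges overlapped from neighbour to neighbour.

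**Figure D3:**
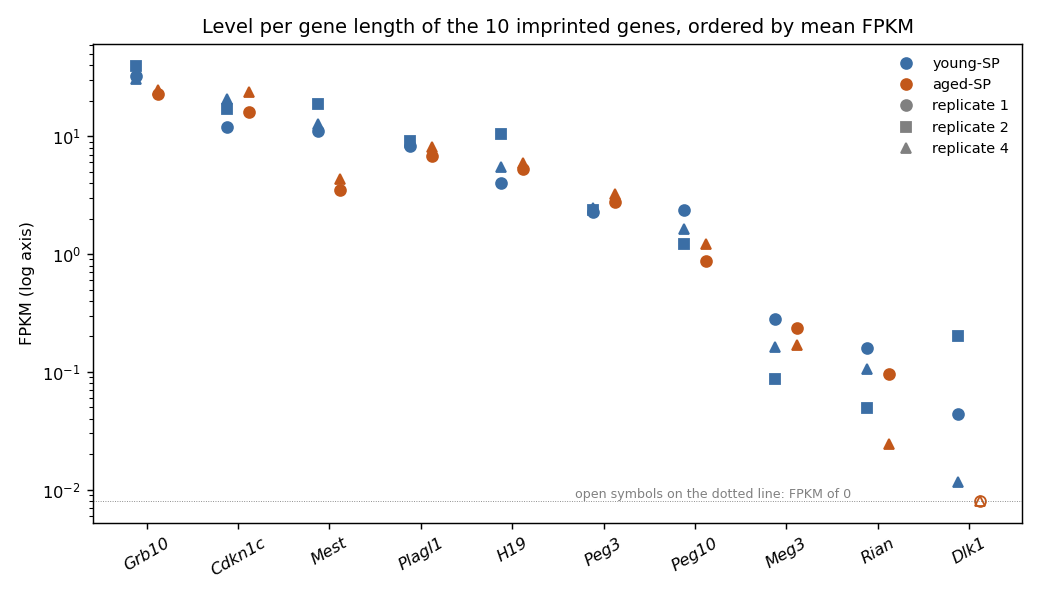
The y axis gives the level in FPKM on a log axis, and the 10 genes on the x axis are ordered by their mean. Symbols are libraries, coloured by group and shaped by replicate, and open symbols on the dotted line stand for 0 FPKM (Dlk1 in the aged-SP libraries). The levels run from 39.7 FPKM for Grb10 to 0 for Dlk1, and Mest is the gene whose groups lie farthest apart among the 5 most abundant.

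Likeness between the genes was measured as the root mean square difference over the 5 libraries of log2 CPM after subtracting each gene's mean. Grb10 and Plagl1 were the most alike (0.174), followed by Peg3 and Cdkn1c (0.245). Mest was closest to Grb10 (0.658), H19 also to Grb10 (0.390), Peg10 to Plagl1 (0.414), Meg3 to Peg3 (0.572) and Rian to Meg3 (0.698). A low value can come from genes that hardly vary, and Plagl1 spanned only 0.40 and Grb10 0.75 on the log2 scale. Rian had the widest range (2.42), and the tested genes most like it were Ccno (0.209), Klrc1 (0.312) and Apol7e (0.323).

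Of 60 other imprinted genes looked for, 55 were in the table and 45 could be tested. By edgeR 0 of the 45 were called, 14 had an unadjusted p under 0.05 (7 higher and 7 lower, against 9.62% and 9.36% of all tested genes), and the libraries of the groups were fully apart in 26 (15 higher and 11 lower), which is 57.8% of the list against 38.8% of all tested genes. DESeq2 called 3, against 3.60% of all genes, and limma-voom 0. The adjusted p of DESeq2 alone was under 0.05 in 4, against 7.58% of all genes. The median log2FC was 0.074, also with Zfp264 set at its bound. The genes that lie beside the 10 members are given cluster by cluster, and Copg2, beside Mest, was given above and was lower without overlap.

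In the chromosome 12 cluster Begain, a gene of synapses at its outer edge, had 52 and 37 counts in aged-SP uteri and 111, 174 and 137 in the young-SP libraries. Its log2FC was -1.67 (SE 0.28), with an adjusted p of 0.0767 in edgeR and 7.899e-05 in DESeq2, which called it. The noncoding Mirg of the same cluster had 4 and 7 counts against 18, 10 and 15, a log2FC of -1.38 (edgeR adjusted p = 0.248). Dio3, the enzyme that inactivates thyroid hormone, went the other way at the far end. It had 53 and 435 counts in aged-SP replicates 1 and 4 and 33, 26 and 41 in the young-SP libraries. Both aged-SP libraries were the higher ones, and most of the counts came from aged-SP replicate 4. The log2FC was 2.87 (SE 0.86), with an adjusted p of 0.177 in edgeR and 0.00648 in DESeq2. The stromal marker Wnt4, picked after its values were seen, was also highest in that library (27.8 CPM, against 4.21 to 10.5 CPM in the others), while the other 6 of the 7 stromal markers were lower in the mean of the aged-SP group. The part of stromal cells in the level of Dio3 was not tested.

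Around Peg3, Zfp264 had 0 counts in both aged-SP libraries and 13, 11 and 5 counts in the young-SP libraries, a level at least 3.21-fold lower with aged males (edgeR adjusted p = 0.114). Of its 50-base stretches, 11.5% occur in other genes. Zim1 had 16 and 29 counts against 10, 22 and 13, and Usp29 had 1 and 5 counts against 0 in each young-SP library. Peg3 and Zim1 were thus higher in the mean of the aged-SP group and Zfp264 was not detected there. Beside Peg10, Sgce, which starts next to it on the other strand and encodes a membrane protein of muscle, had a log2FC of 0.20 (edgeR adjusted p = 0.544), against -0.72 for Peg10. Tfpi2 in the same region, an inhibitor of serine proteases, had 63 and 77 counts against 114, 164 and 114, a log2FC of -0.90 (edgeR adjusted p = 0.151).

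On distal chromosome 7, Kcnq1ot1, the noncoding RNA that silences the cluster of Cdkn1c on the paternal copy, had 255 and 198 counts in aged-SP uteri and 298, 324 and 279 in the young-SP libraries. Its log2FC was -0.42 (edgeR adjusted p = 0.215), where that of Cdkn1c was 0.28. Phlda2 of that cluster had at most 7 counts in a library and could not be tested. Ascl2, a transcription factor of the placenta, had 23 and 43 counts against 9, 13 and 13, a log2FC of 1.49 (edgeR adjusted p = 0.166). Next to Grb10, Ddc had 7 to 15 counts in a library and a log2FC of 0.29 (edgeR adjusted p = 0.778).

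Outside these clusters, Igf2r, the receptor that removes IGF2, had 235 and 252 CPM in the aged-SP libraries and 194, 199 and 209 CPM in the young-SP libraries, a log2FC of 0.28 (edgeR adjusted p = 0.194). Peg12 had 3.20 and 2.62 CPM against 4.69, 6.50 and 6.68 CPM, a log2FC of -1.03 (adjusted p = 0.142 in edgeR and 0.0456 in DESeq2, which called it). H13, a peptidase of the endoplasmic reticulum, had 139 and 103 CPM against 91.4, 81.9 and 83.1 CPM, a log2FC of 0.50 (edgeR adjusted p = 0.173). In each of the 3 genes the groups did not overlap.

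The products of several of these genes act on the insulin and IGF receptors, on Notch or on the cell cycle, and 36 genes of those pathways were read in the same fit. Of the 35 that could be tested, edgeR called 0, DESeq2 called 1 (Irs2) and limma-voom 0, while 12 had an unadjusted p under 0.05 (7 higher and 5 lower, against 9.62% and 9.36% of all tested genes). The share called by DESeq2 over all genes was 3.60%. By the adjusted p of DESeq2 alone, 8 genes of the list were under 0.05, against 7.58% of all genes. The libraries of the groups were fully apart in 15 (8 higher and 7 lower), which is 42.9% of the list and near the 38.8% of all tested genes, and the median log2FC was -0.020.

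The receptors that Grb10 binds, 1 of their docking proteins (Irs2) and a ligand were among the 8 genes with the smallest p. The other docking protein on the list, Irs1, overlapped between the groups (log2FC -0.097, edgeR adjusted p = 0.675). Igf1r, the IGF1 receptor, had 132 and 118 CPM in the aged-SP libraries and 72.8, 71.9 and 75.0 CPM in the young-SP libraries. Its log2FC was 0.77 (SE 0.09), with an adjusted p of 0.0650 in edgeR. Irs2, a docking protein of both receptors, had 31.4 and 20.5 CPM against 9.70, 11.2 and 11.7 CPM, a log2FC of 1.25 (edgeR adjusted p = 0.0848). Insr, the insulin receptor, had 112 and 117 CPM against 81.2, 83.9 and 91.0 CPM, a log2FC of 0.42 (edgeR adjusted p = 0.111). The ligand went the other way: Igf1 had 389 and 357 CPM against 614, 945 and 637 CPM, a log2FC of -0.97 (edgeR adjusted p = 0.117). By DESeq2 the adjusted p was 4.679e-07 for Igf1r, 0.00027 for Irs2, 0.0173 for Insr and 0.000997 for Igf1. Of these only Irs2 also passed the log2FC threshold of 1. Thus the receptors and Irs2 lay higher, and Igf1 and Grb10 lower, in each aged-SP library than in all young-SP libraries.

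Hes1, a target gene of Notch, had 36.4 and 33.4 CPM in the aged-SP libraries and 18.3, 21.0 and 14.9 CPM in the young-SP libraries, a log2FC of 0.95 (edgeR adjusted p = 0.0867). The receptors Notch1, Notch2, Notch3 and Notch4 overlapped between the groups (log2FC -0.085, 0.014, -0.34 and -0.24). The ligand Jag1 also overlapped (log2FC 0.36). Of the cell cycle genes, Ccnd2 (cyclin D2) had 43.8 and 32.2 CPM against 62.1, 65.9 and 72.3 CPM, a log2FC of -0.81 (edgeR adjusted p = 0.0978). Cdk4, Ccnd3, Ccne2 and Pcna were also lower without overlap (log2FC -0.38, -0.38, -0.83 and -0.35). Cdk1, Cdk2, Ccne1 and Ccna2 overlapped between the groups (log2FC -0.71, -0.17, -0.66 and -0.78). Cdk6 and Ccnd1 overlapped too, with a log2FC above 0 (0.75 and 0.19). Both relatives of Cdkn1c among the kinase inhibitors were higher in the aged-SP libraries without overlap. Cdkn1b had 208 and 184 CPM against 154, 142 and 138 CPM, a log2FC of 0.44 (edgeR adjusted p = 0.121). Cdkn1a had 315 and 330 counts against 230, 175 and 196, a log2FC of 0.67 (edgeR adjusted p = 0.152). DESeq2 gave an adjusted p of 0.000449 for Hes1, 0.00172 for Ccnd2, 0.0186 for Cdkn1b and 0.0533 for Cdkn1a.

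**Figure D4:**
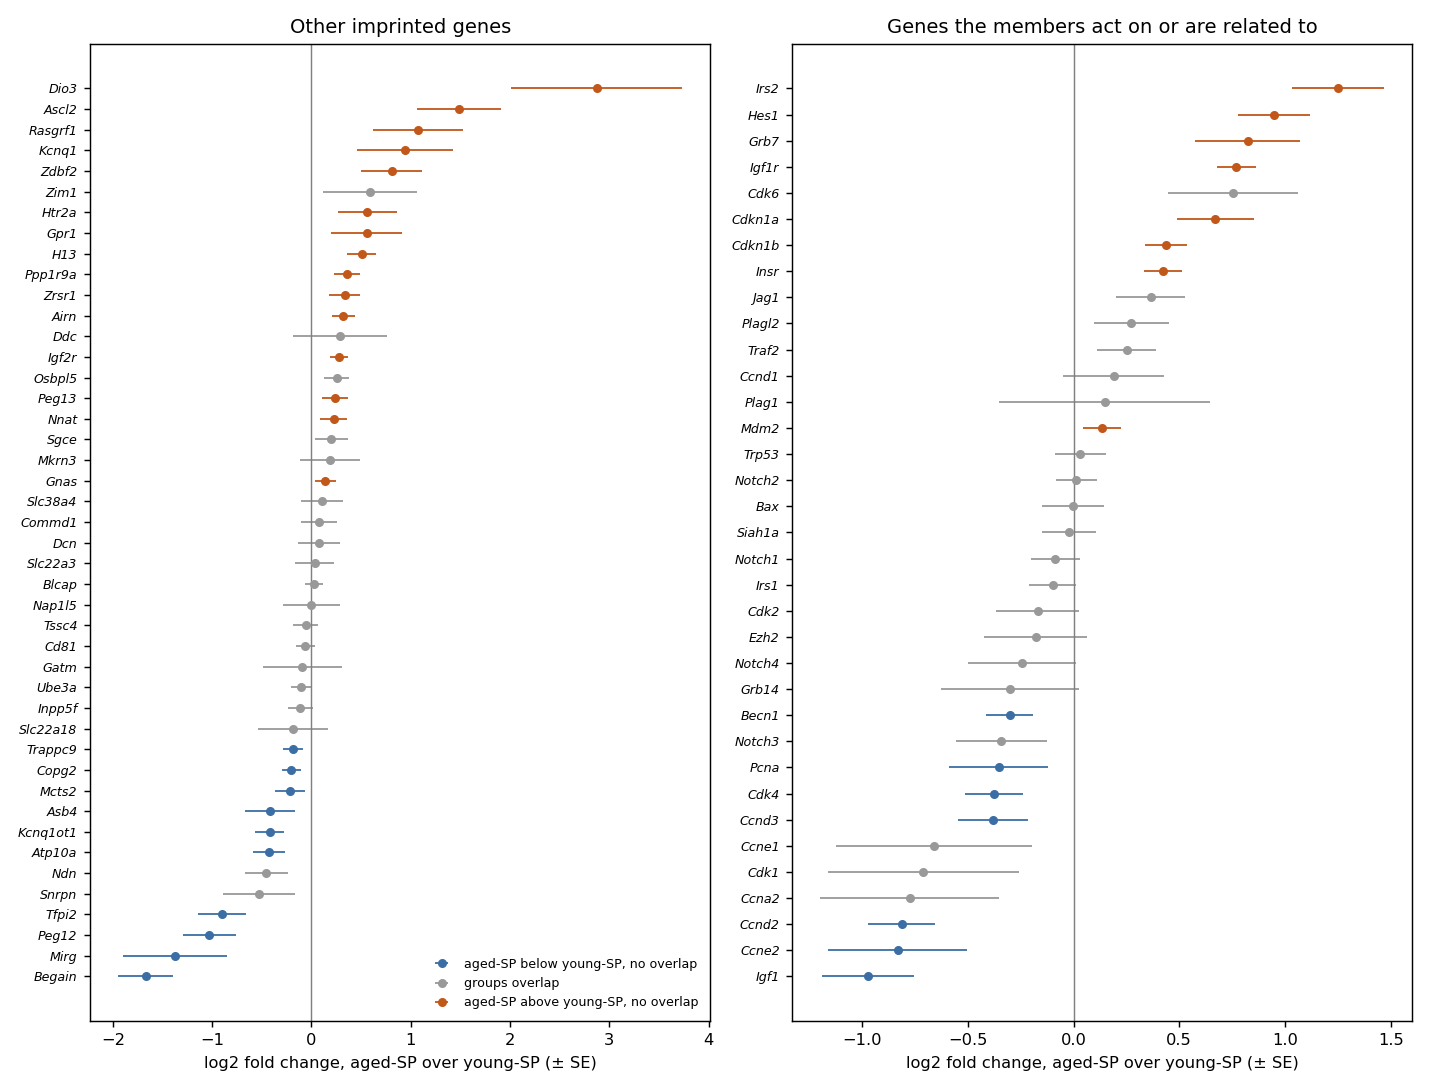
The x axis of each panel gives the log2FC of the aged-SP over the young-SP group from edgeR with its SE, and each row is 1 tested gene of the other imprinted genes (left, without Zfp264, which had 0 counts in the aged-SP group) or of the genes that the imprinted genes act on or are related to (right). Colours mark whether the libraries of the groups overlapped. The values scatter to both sides of 0 in each panel, from Begain (-1.67) to Dio3 (2.87) on the left and from Igf1 (-0.97) to Irs2 (1.25) on the right.

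The genes that set or keep imprinting marks showed small differences. Of 20 looked for, 18 could be tested, 0 were called by edgeR, DESeq2 or limma-voom, and 0 had an unadjusted p under 0.05. The log2FC values lay between -0.45 and 0.19, and 3 of the 18 had no overlap between groups, which is 16.7% against 38.8% of all tested genes. Dnmt1, which copies DNA methylation at replication, had 62.2 and 77.4 CPM in the aged-SP libraries and 119.9, 89.9 and 75.8 CPM in the young-SP libraries, a log2FC of -0.45 (edgeR adjusted p = 0.344). Its highest library, young-SP replicate 1, also had the highest sums of the proliferation, epithelial and leukocyte markers. The part of these cells in the level of Dnmt1 was not tested. Trim28 and Zfp57, which together protect imprints in the early embryo, had log2FC values of -0.11 and 0.15, and Zfp445, which shares that role, -0.13. Arid4b had a log2FC of 0.19, Arid4a 0.15, Dnmt3a 0.12 and Tet1 -0.25, and the adjusted p of these 8 genes lay between 0.344 and 0.643 by edgeR.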

How the data were processed

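Uterine RNA of 2 aged-SP and 3 young-SP libraries was analysed, with groups taken from the sample titles and 0 columns of values per sample left unused. Reads were cleaned and mapped by the authors with HISAT2 2.1.0 (Bowtie2 2.2.3 and HTSeq 0.6.0 also stand in the submitters' processing notes), and the table deposited by the authors holds 1 raw read count per gene and library. FPKM values were deposited separately for each library. The authors derived them from the counts, a gene length and the library total. They were used here only to set levels of different genes side by side. The table's own fold changes and p-values from the authors' DESeq2 comparison were not used.

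Counts of the 17013 genes kept by filterByExpr were scaled by TMM and compared with glmQLFit and glmQLFTest of edgeR 4.0.16 in R 4.3.3. The threshold for a call was 0.05 for the adjusted p together with 1 for the size of the log2 fold change. Alternatives were DESeq2 1.42.0, limma-voom (limma 3.58.1), DESeq2 size factors, library size alone, other filters, a replicate block, each library left out and the adjusted p alone. Log2 CPM had a prior count of 2. A count of 3 was taken as the floor. Tests were checked on simulated data. Exon overlaps and shared 50-base stretches were computed from GENCODE M21 (GRCm38), in which the 10 genes have the positions of the deposited table.

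The members and lists were chosen with earlier results of these data known. Named were all 10 members, genes of their clusters, up to 8 genes per list with the smallest p, and related genes set beside them. Marker lists covered epithelium, glands, stroma, myometrium, endothelium, leukocytes, adipose tissue, skeletal muscle, ovary and proliferation.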

Additional observations from a re-analysis of the deposited data

How the results depend on the processing

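The count of called genes was the least stable value. Over all tested genes it was 25, against 632 with DESeq2, 203 without a filter on low counts, 2 with a replicate block and 1 to 578 with each library left out in turn (1 without aged-SP replicate 1, 49 without aged-SP replicate 4, and 578, 3 and 2 without young-SP replicates 1, 2 and 4). For the 10 members it was 0, and 1 (Mest) with DESeq2, 1 (Mest) without the filter and 0 to 1 with a library left out (Mest without young-SP replicate 1). For the other imprinted genes it was 0, and 3 (Begain, Dio3 and Peg12) with DESeq2, 1 (Begain) without the filter and 0 to 1 with a library left out (Begain without young-SP replicate 1). For the genes they act on it was 0, and 1 (Irs2) with DESeq2, 1 (Irs2) without the filter and 0 to 1 with a library left out (Grb7 without young-SP replicate 1). For the cell type markers it was 0, and 3 with DESeq2, 2 without the filter, 1 with limma-voom and 0 to 5 with a library left out (5 without young-SP replicate 1, 1 without aged-SP replicate 4). The regulators of imprinting had 0 in every fit run. The causes were not tested. The replicate block rests on numbers shared by the labels, with correlations of the deviations of 0.152 and 0.136 for the numbers 1 and 4, and the labels do not say that a number marks a pair. With the block the log2 fold change was 0.25 for H19 and -0.10 for Meg3, both reversed, and -1.59 for Mest (adjusted p = 0.147 in edgeR). With each library left out it lay between -0.50 and 0.23 for H19, -0.13 and 0.71 for Meg3 and -0.0082 and 0.52 for Cdkn1c. The other 6 tested members kept their direction in all alternatives run, although Rian could not be tested with at least 10 counts in every library. Where an aged-SP library was left out, the remaining one was assumed to vary like the young-SP libraries. Dlk1, Igf2 and Phlda2 had too few counts for the filter, although Dlk1 passed it when either aged-SP library was left out.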

Other observations

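In 2 imprinted gene pairs that hold none of the 10 genes, a noncoding RNA is transcribed against a coding gene. These values were picked after they had been seen. Airn, which is read against Igf2r, had 24.2 and 23.9 CPM in the aged-SP libraries and 18.5, 19.2 and 20.2 CPM in the young-SP libraries, so that both it and Igf2r were higher in each aged-SP library (log2 fold change 0.32 for Airn, adjusted p = 0.228 in edgeR, and 0.28 for Igf2r). At the locus of Cdkn1c, Kcnq1 had 18.6 and 20.0 CPM against 16.6, 4.97 and 8.48 CPM, with a log2 fold change of 0.94 (edgeR adjusted p = 0.357), while Kcnq1ot1, which is read against it, was lower in each aged-SP library (log2 fold change -0.42). Reads from opposite strands of a locus cannot be told apart if strand was not used in counting, which is not given in the sources used here.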
